A study of Mus musculus with 14 samples.

Results

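Transcripts of 9 genes that respond to stretch, load and damage of muscle fibres were followed in gastrocnemius, the large muscle of the calf, in which fast fibres prevail. The 9 genes, Ankrd1, Ankrd2, Ankrd23, Csrp3, Xirp1, Flnc, Mybph, Myoz2 and Nrap, were chosen by symbol out of 19505 genes measured, and each was read by 1 probeset. One Clariom S array was run for each of 14 male C57BL/6 mice carrying subcutaneous Panc02 pancreatic tumours. Of these, 7 mice ate the AIN-93G diet with HMB (β-hydroxy-β-methylbutyrate, which the body makes from leucine and which is sold to preserve muscle) from 1 week before the tumour cells were injected. The other 7 mice, the controls, ate AIN-93G alone. The labels mention anti-PD1 at 200 µg every 3 days without saying which of these mice received it, and the study's methods also describe an isotype control. The study states that this transplanted tumour does not bring about cachexia.

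A stretched fibre passes load through the Z-disc, the plate that anchors the actin filaments and the ends of the giant spring protein titin. Ankrd1, Ankrd2 and Ankrd23 encode the muscle ankyrin repeat proteins, which bind titin's N2A segment and can also enter the nucleus. Csrp3 (muscle LIM protein), Myoz2 (a tether of the phosphatase calcineurin) and Flnc (filamin C, an actin crosslinker) sit at the Z-disc. Xirp1 and Nrap bind actin where myofibrils are built or joined to the membrane, and Mybph belongs to the myosin-binding proteins of the thick filament.

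Levels are given in log2 units as read from the deposited table, and differences are HMB minus control in the same units. No fold is printed, because no source used here states the scale, and levels of different genes are not compared. Background was taken from intron control probesets, whose 95th percentile lay between 10.53 and 10.87 over the arrays and whose median lay between 6.25 and 6.67. All 14 arrays carried the signature of skeletal muscle, with a mean of 8 muscle genes (Ckm and Acta1 among them) of 16.36 to 16.71 on HMB arrays and 16.19 to 16.71 on control arrays. A mean of 7 heart genes was 4.74 to 5.35 and 4.91 to 5.27 on the same arrays. Marker lists of other cells set single arrays apart. The B and T lymphocyte mean was 3.66 to 4.40 on HMB arrays, and it was 10.76 on control 7 and 4.21 to 4.30 on the other controls. The adipocyte mean was 12.74 on HMB 7 and 8.66 to 10.88 on the other HMB arrays, and 14.37 on control 7 and 8.55 to 10.82 on the other controls. The fibroblast and matrix mean was 12.52 on HMB 4 and 10.36 to 11.50 on the other HMB arrays, and 12.76 on control 3 and 10.93 to 11.61 on the other controls.

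Ankrd23, Flnc and Nrap were above the intron 95th percentile on 14 of 14 arrays, Ankrd2 and Myoz2 on 13, and Csrp3 on 11. Xirp1 exceeded it on 8, Mybph on 6 and Ankrd1 on 5 arrays, so these 3 genes were read near background on many animals. All 9 genes lay at or above the median gene level. In GRCm38.p6, Ankrd1 spans chr19:36111965-36119844, Ankrd2 chr19:42035917-42045111, Nrap chr19:56320037-56390062, Ankrd23 chr1:36530193-36536556 and Mybph chr1:134193418-134201237. Csrp3 spans chr7:48830398-48848051, Xirp1 chr9:120013755-120023598, Flnc chr6:29433153-29461889 and Myoz2 chr3:123006206-123035003.

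The genes fell into sets that varied together from animal to animal, described below, and the bases before the start of 5 of them are shown first because those sets turn on these genes. The stretches are the 140 bases before the outermost annotated start of each gene, on the strand of the gene and in the RefSeq annotation of GRCm38.p6. Capitals mark an E-box (CANNTG), an MCAT element (CATTCC, read on both strands) or a MEF2 site. Ankrd2, Csrp3 and Myoz2 form the first set, and Ankrd1 and Mybph the second. In the Mybph stretch the E-box and the MCAT element adjoin and form 1 run of capitals.
Ankrd2, chr19:42035777-42035916, plus strand: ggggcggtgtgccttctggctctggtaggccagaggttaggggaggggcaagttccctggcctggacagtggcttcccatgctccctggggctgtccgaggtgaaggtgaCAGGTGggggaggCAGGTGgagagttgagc
Csrp3, chr7:48848052-48848191, minus strand: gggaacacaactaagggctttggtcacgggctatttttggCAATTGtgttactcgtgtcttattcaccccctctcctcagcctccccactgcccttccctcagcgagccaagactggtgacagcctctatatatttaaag
Myoz2, chr3:123035004-123035143, minus strand: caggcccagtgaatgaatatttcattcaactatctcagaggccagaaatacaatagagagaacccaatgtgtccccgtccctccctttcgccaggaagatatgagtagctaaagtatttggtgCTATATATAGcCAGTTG
Ankrd1, chr19:36119845-36119984, minus strand: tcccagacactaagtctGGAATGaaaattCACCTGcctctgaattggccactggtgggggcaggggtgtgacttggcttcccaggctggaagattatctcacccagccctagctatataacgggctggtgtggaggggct
Mybph, chr1:134193278-134193417, plus strand: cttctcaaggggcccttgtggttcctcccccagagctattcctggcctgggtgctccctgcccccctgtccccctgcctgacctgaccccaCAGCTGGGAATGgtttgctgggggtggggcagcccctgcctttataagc

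Over windows of 300 bases around annotated starts, found for 8 of the 9 genes, MCAT was present for Ankrd1, Ankrd23, Flnc and Mybph and for none of Ankrd2, Csrp3, Myoz2 and Nrap. Of 32851 such mouse windows, 14.7% held it. The MEF2 site of Myoz2 was the only one in these genes (3.19% of all windows), the CArG box was found in none (1.63%), and E-boxes were common everywhere (72.3%). A match shows only that the letters are there.

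HMB was set against control to learn whether the supplement altered these genes in muscle of tumour-bearing mice. No gene of the 9 passed limma's adjusted threshold of 0.05, where 0% of all genes did, and 0 of 9 passed at an unadjusted p under 0.05, against 4.54% of all genes. With 1 array left out, Flnc had an unadjusted limma p of 0.0237 without HMB 6 and 0.0366 without HMB 3, and Mybph 0.0494 without control 3, while their adjusted p stayed at 0.989 or above. The methods' t-test also called 0 genes of the whole array after adjustment, and 853 before it. The HMB and control ranges overlapped for all 9, while 0.0974% of all genes had ranges that did not. By mean, 8 genes were higher in HMB and 1, Xirp1, was lower, with 51.7% of all genes higher. The median difference of the 9 was 0.54 and that of all genes 0.009. That median rested largely on genes with a wide spread between animals, as the values below show.

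**Figure D1:**
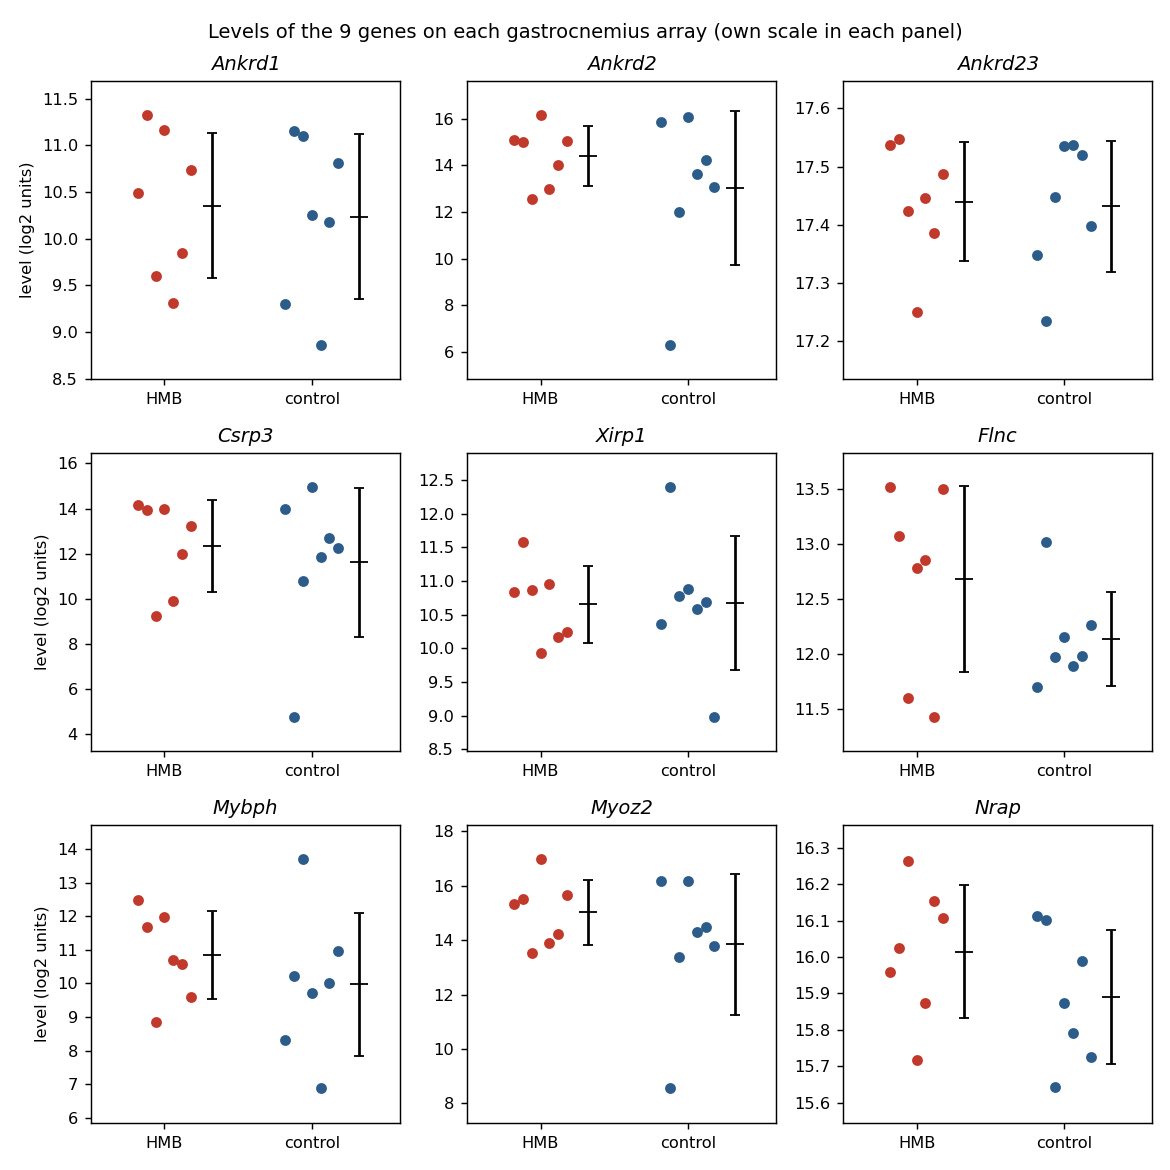
Level of each gene in log2 units (vertical axis, own scale in each panel) on the 7 HMB arrays (left) and the 7 control arrays (right), with the mean and SD beside the points. The groups overlap in every panel, and 1 control lies far below the others for Ankrd2 (6.30), Csrp3 (4.78) and Myoz2 (8.55).

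Among the ankyrin repeat genes, Ankrd1, which is induced in injured and overloaded muscle, had levels of 9.31 to 11.32 (median 10.49) on HMB arrays and 8.86 to 11.15 (median 10.25) on control arrays. The highest animals of both diets and the lowest of both lay close together. The means were 10.36 ± 0.78 and 10.24 ± 0.88 (SD, n = 7 each), a difference of 0.12 with a 95% interval of -0.75 to 0.99 (limma adjusted p = 0.996).

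Ankrd2, the ankyrin repeat gene of slow fibres, had levels of 12.57 to 16.14 (median 15.02) on HMB arrays and 6.30 to 16.09 (median 13.63) on control arrays. Control 2 alone was at 6.30, and the other 6 controls lay between 12.00 and 16.09, within 1 unit of the HMB range at either end. The means were 14.40 ± 1.28 and 13.03 ± 3.31 (SD, n = 7 each), a difference of 1.37 (interval -1.18 to 3.93, limma adjusted p = 0.990). Without control 2 the difference was 0.25.

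Ankrd23, the third of the family, was almost level over the animals, at 17.25 to 17.55 (median 17.45) on HMB arrays and 17.23 to 17.54 (median 17.45) on control arrays. Its difference was 0.0079 (interval -0.21 to 0.22, limma adjusted p = 0.999). The whole range of 14 animals spanned 0.31 units, against 9.84 for Ankrd2 and 2.46 for Ankrd1, so the 3 related genes differed widely in how much they varied.

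Of the Z-disc proteins best known from slow fibres and heart, Csrp3 had levels of 9.22 to 14.14 (median 13.23) on HMB arrays and 4.78 to 14.94 (median 12.25) on control arrays. Control 2 was again the lowest, with the other controls at 10.79 or above. The difference was 0.73 (interval -2.07 to 3.53, limma adjusted p = 0.996), and without control 2 it was -0.41.

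Myoz2 had levels of 13.54 to 16.99 (median 15.33) on HMB arrays and 8.55 to 16.19 (median 14.31) on control arrays. Control 2 held the 8.55 and the remaining controls began at 13.40, so 6 controls and 7 HMB animals covered nearly the same range. The means were 15.02 ± 1.20 and 13.85 ± 2.58 (SD, n = 7 each), with a difference of 1.18 (interval -0.87 to 3.23, limma adjusted p = 0.990). It was 0.30 without control 2.

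Flnc, whose protein gathers at damaged Z-discs, had levels of 11.43 to 13.52 (median 12.86) on HMB arrays and 11.70 to 13.02 (median 11.99) on control arrays. The HMB animals fell apart, with 5 at 12.79 to 13.52 and HMB 3 and HMB 6 at 11.60 and 11.43, and the controls lay at 11.70 to 12.27 with control 2 alone at 13.02. The means were 12.68 ± 0.85 and 12.14 ± 0.43 (SD, n = 7 each), a difference of 0.54 (interval -0.16 to 1.25), and 5 of 7 HMB animals exceeded the control mean. Flnc had the lowest exact permutation p of the 9 genes, 0.152 (two-sided, limma adjusted p = 0.990).

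Xirp1, which marks newly damaged and remodelling fibres, had levels of 9.93 to 11.58 (median 10.84) on HMB arrays and 8.99 to 12.39 (median 10.69) on control arrays. Both extremes were controls, control 7 at 8.99 and control 2 at 12.39, and the other controls lay at 10.36 to 10.89. The difference was -0.014 (interval -0.86 to 0.83, limma adjusted p = 0.999), and it was 0.27 without control 2 and -0.29 without control 7. Control 7 is the array of high lymphocyte and adipocyte means given above, whose part in its low Xirp1 was not tested.

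Nrap, a scaffold of growing myofibrils that is also found where fibres meet tendon, had levels of 15.72 to 16.26 (median 16.02) on HMB arrays and 15.64 to 16.11 (median 15.87) on control arrays. The groups covered nearly the same narrow band, with 6 of 7 HMB animals above the control median. The difference was 0.12 (interval -0.14 to 0.39, limma adjusted p = 0.990).

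Mybph had levels of 8.85 to 12.49 (median 10.71) on HMB arrays and 6.87 to 13.71 (median 10.002) on control arrays. The lowest and the highest animal were both controls, control 5 and control 3. The means were 10.84 ± 1.31 and 9.97 ± 2.14 (SD, n = 7 each), a difference of 0.87 (interval -0.94 to 2.67, limma adjusted p = 0.990), which was 1.49 without control 3 and 0.35 without control 5. Control 3 is the array of highest fibroblast and matrix mean, whose part in its Mybph level was not tested.

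**Figure D2:**
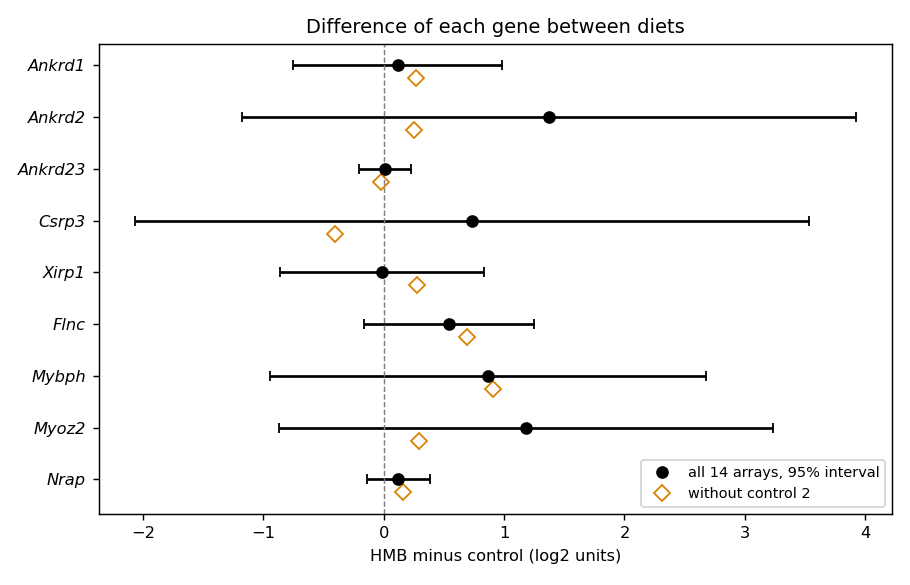
Difference between diets for each gene in log2 units (horizontal axis), as the limma estimate over 14 arrays with its 95% interval (black) and the estimate without control 2 (open diamonds). All 9 intervals include 0, and leaving out control 2 moves Ankrd2 to 0.25, Myoz2 to 0.30 and Csrp3 to -0.41.

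With 7 animals in each group, the exact permutation test over all 3432 assignments of the arrays gave p between 0.152 and 0.975 for the 9 genes, and the smallest p it allows is 0.000583. The intervals show which sizes of difference were not excluded. They were narrow for Ankrd23 and Nrap. For Ankrd2, Csrp3, Mybph and Myoz2 they reached beyond 2 units in at least 1 direction, so differences of that size in that direction were not excluded.

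Spread between animals set the genes apart more than diet did. The SD within groups was 2.75 for Csrp3, 2.51 for Ankrd2, 2.01 for Myoz2 and 1.77 for Mybph, where the median gene had 0.43. Among 19505 genes ordered by that SD, from the widest down, Csrp3 held rank 7, Ankrd2 rank 15, Myoz2 rank 51 and Mybph rank 99. Ankrd1 (0.83), Xirp1 (0.81) and Flnc (0.67) were also above the median gene, while Nrap (0.18, rank 18151) and Ankrd23 (0.11, rank 19376) were among the steadiest. These ranks describe the 14 arrays, and dim genes are part of the ordering. For Ankrd2, Csrp3 and Myoz2 the SD among HMB arrays was 1.28, 2.04 and 1.20. Among control arrays, which include control 2, it was 3.31, 3.31 and 2.58. On control 2, Ankrd2 (6.30) lay near that array's intron median of 6.25, and Csrp3 (4.78) lay below it. Ranks without control 2 were not taken.

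Ankrd2, Csrp3 and Myoz2 went up and down together over the animals. Pearson's r over 14 arrays was 0.991 for Ankrd2 and Myoz2, 0.960 for Ankrd2 and Csrp3 and 0.945 for Csrp3 and Myoz2, and Spearman's rho was 0.978, 0.947 and 0.895. By permutation of 100000 resamples p was 1e-05 for each r, the smallest it can give, and 0.00012 after Benjamini-Hochberg adjustment over 36 pairs. For rho p was 1e-05, 1e-05 and 3e-05, adjusted to 0.00018, 0.00018 and 0.00036. The relation did not rest on control 2 alone, since without the 2 arrays farthest from the median of the first gene (control 2 and control 3 for the Ankrd2 pairs, control 2 and HMB 3 for the last) r was 0.974, 0.913 and 0.853. Within the 7 HMB arrays r was 0.972, 0.954 and 0.867 (adjusted p by exact permutation 0.0321, 0.0321 and 0.0655), and within the 7 control arrays it was 0.997, 0.994 and 0.990 (0.00714, 0.00714 and 0.0119).

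**Figure D3:**
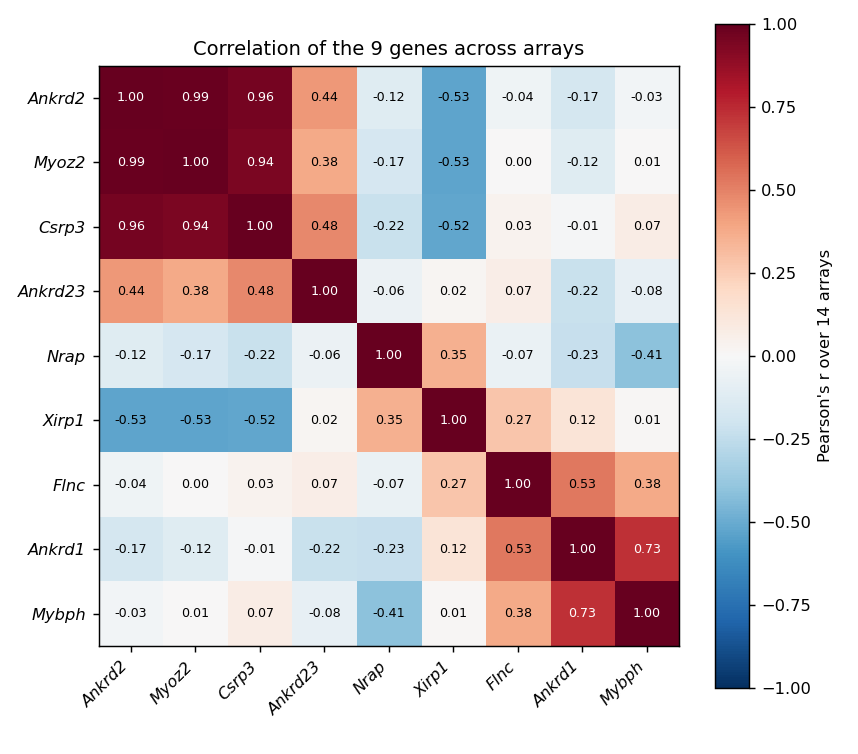
Pearson's r between each pair of the 9 genes over 14 arrays (colour and printed value). Ankrd2, Myoz2 and Csrp3 form a block at 0.945 and above, Ankrd1 and Mybph reach 0.730, and Xirp1 has r of -0.531 to -0.516 with the genes of the block, which is -0.043 to 0.026 without control 2.

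The same 3 genes followed the amount of slow fibre transcript. The mean of 10 slow fibre genes (Myh7, Myl2, Tnni1 and others, none of them among the 9) was 8.24 to 14.94 on HMB arrays and 6.89 to 13.29 on control arrays, with control 2 the lowest and HMB 4 the highest animal. Pearson's r with it was 0.820 for Ankrd2, 0.831 for Csrp3 and 0.831 for Myoz2 (permutation p 0.00011, 0.0001 and 0.00013, each 0.00039 after adjustment over 9 genes), and rho was 0.912, 0.859 and 0.881 (permutation p 5e-05, 0.00022 and 9e-05, adjusted to 0.000405, 0.00066 and 0.000405). Without control 2 and HMB 4, the 2 farthest arrays, r was 0.819, 0.837 and 0.770. Within the 7 HMB arrays r was 0.876, 0.722 and 0.894 (exact permutation p 0.00893, 0.0685 and 0.00833, adjusted to 0.0402, 0.154 and 0.0402), so that of Csrp3 did not pass there, and within the 7 control arrays r was 0.949, 0.953 and 0.927 (0.000397, 0.000198 and 0.000992, adjusted to 0.00179, 0.00179 and 0.00298). The fast fibre mean was not set against these genes in this way. Myh2, a myosin of fast 2A fibres, had r of 0.968 with Ankrd2 and with Myoz2. The relation was therefore not shown to be particular to slow fibres. In bulk muscle, fewer slow fibres and less of these RNAs per fibre cannot be told apart.

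**Figure D4:**
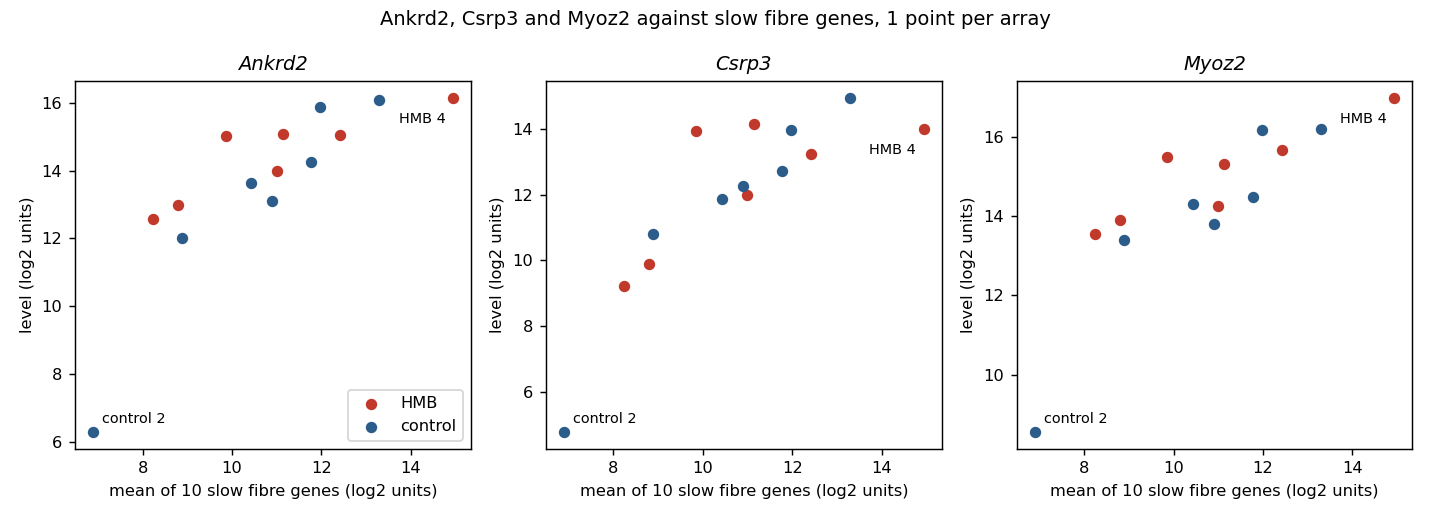
Level of Ankrd2, Csrp3 and Myoz2 (vertical axes, log2 units) against the mean of 10 slow fibre genes (horizontal axis, log2 units), 1 point per array, HMB in red and control in blue. All 3 genes are lowest on control 2, and HMB 4 has the highest slow fibre mean (14.94).

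HMB 4 and control 4, the arrays of highest slow fibre mean in their groups (14.94 and 13.29), had Ankrd2 at 16.14 and 16.09 and Myoz2 at 16.99 and 16.19. Among single genes at or above the median level, Ankrd2 and Myoz2 were most like each other, and next like Myh2 (r = 0.968 with both), the myosin of fast oxidative 2A fibres. Ankrd2 was also close to Myl2 (0.964), a slow myosin light chain, and Myoz2 to Mb (0.964), the oxygen carrier myoglobin. Myh2 was at 16.03 to 17.67 on HMB arrays, and at 12.23 on control 2 and 16.16 to 17.56 on the other controls. The genes most like Csrp3 were Fhl1 (0.979), a LIM protein of muscle, Agbl1 (0.968) and Actn2 (0.962), the α-actinin of the Z-disc. These are the highest r among 9753 genes over the same 14 arrays, given as a description.

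Control 2 was low in slow myosin and in the fast myosins Myh2 and Myh1, and within the range of the other animals in Myh4. Its Myh1, the myosin of 2X fibres, was at 14.08, with 15.35 to 17.59 on HMB arrays and 16.86 to 17.53 on the other controls. Its Myh4, the myosin of 2B fibres, was at 19.07, with 18.98 to 19.38 on HMB arrays and 19.03 to 19.54 on the other controls. Myh7, the slow myosin, was at 4.30 on control 2, with 5.34 to 15.26 on HMB arrays and 6.31 to 13.81 on the other controls. The fast fibre list mean of control 2 was 17.10, with 17.69 to 17.86 on the other controls, and its endothelial mean was 10.46, with 11.03 to 11.31. The animal also had the highest Xirp1 and Flnc of the controls.

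With the slow fibre mean as a covariate in the limma fit, the HMB difference was 1.07 for Ankrd2 (limma adjusted p = 0.952), 0.93 for Myoz2 (limma adjusted p = 0.952) and 0.40 for Csrp3 (limma adjusted p = 0.981). With that covariate and without control 7 and HMB 4, it was 1.45 for Ankrd2 (limma adjusted p = 0.898, before adjustment 0.0485), 1.12 for Myoz2 (limma adjusted p = 0.913) and 0.96 for Csrp3 (limma adjusted p = 0.964). Both fits kept control 2, the second left out the array of highest slow fibre mean, and no fit with the covariate was run without control 2. The remaining 6 genes did not pass an adjusted threshold of 0.05 with the slow fibre mean. Xirp1 came nearest, with r = -0.584 (permutation p 0.0292, adjusted 0.0657) and rho = -0.565 (permutation p 0.039, adjusted 0.0879), and r was -0.271 without control 2 and HMB 4 and -0.383 without control 2 alone, an array chosen after the data were seen. Within the 7 HMB arrays it was -0.734 (exact permutation p 0.0563, adjusted 0.154) and within the 7 control arrays -0.538 (exact permutation p 0.210, adjusted 0.303). Without control 7 and HMB 4 its r was -0.660 (permutation p 0.0166, adjusted 0.0373). For Ankrd1, Ankrd23, Flnc, Mybph and Nrap r lay between -0.252 and 0.070. Within the HMB arrays it was 0.657, -0.54, 0.33, 0.429 and -0.572 in that order. Within the control arrays it was -0.51, 0.653, -0.662, -0.343 and -0.006. The sign thus differed between groups for all of them but Nrap, and the adjusted p by exact permutation was 0.191 or above throughout.

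Ankrd1 and Mybph made the second set, which was weaker than the first. As given above, both genes were read near background on many animals. Their r was 0.730 (permutation p 0.00287, adjusted 0.0258 over 36 pairs) and rho 0.684 (permutation p 0.00903, adjusted 0.0813). Control 5 was lowest in both genes (8.86 for Ankrd1 and 6.87 for Mybph), and control 3 was high in both (11.10 and 13.71). Without control 1 and control 5, the 2 arrays farthest from the median of Ankrd1, r was 0.511 (permutation p 0.0892, adjusted 0.459). The relation was thus weaker and did not pass without those arrays. Without control 7 and HMB 4 it was 0.704 (permutation p 0.0101, adjusted 0.0799). Within the 7 HMB arrays r was 0.528 (exact permutation p 0.223, adjusted 0.451) and within the 7 control arrays 0.867 (exact permutation p 0.00655, adjusted 0.0589). With Ankrd2, Csrp3 and Myoz2, Ankrd1 had r of -0.174, -0.012 and -0.121 over 14 arrays. Within the HMB arrays these were 0.902, 0.889 and 0.892 (adjusted p by exact permutation 0.0655 each). Within the control arrays they were -0.6, -0.522 and -0.592 (adjusted 0.379, 0.448 and 0.379). Within HMB, Ankrd1 thus had higher r with the first set than with Mybph, though none passed after adjustment. Ankrd1 and Mybph also share an MCAT element near an E-box in the stretches printed above, which is a likeness of letters and no more.

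The gene most like Ankrd1 was Mustn1, a small nuclear protein of muscle and skeleton that also stands in the list of load and damage genes. Its r with Ankrd1 was 0.870 and rho 0.815, and r was 0.861 without the 2 farthest arrays, 0.935 within HMB arrays and 0.824 within control arrays. Mustn1 lay at 13.30 to 14.81 on HMB arrays and 13.16 to 14.56 on control arrays. Castor1, an arginine sensor of mTORC1, followed with r = 0.831, and Hsd3b7, an enzyme of bile acid synthesis, with 0.755. Mybph was most like Mxd1 (0.839), a partner of Max, Eef1b2 (0.785), an elongation factor subunit, and Pigf (0.776). These genes too were picked by their r on the same arrays and are given as a description.

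**Figure D5:**
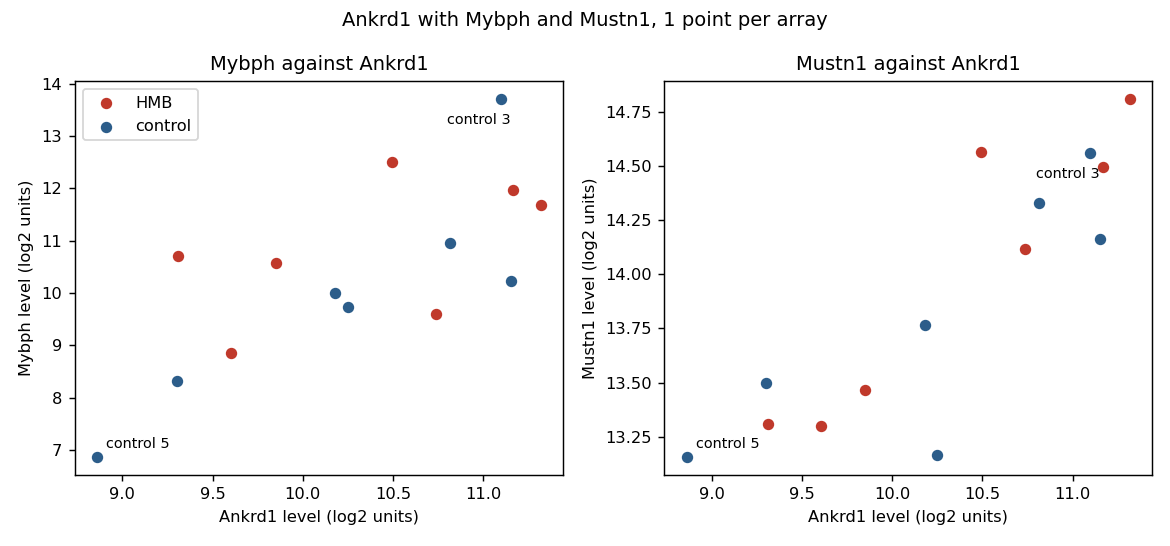
Level of Mybph (left) and Mustn1 (right) against the level of Ankrd1 (all axes in log2 units), 1 point per array, HMB in red and control in blue. Over the 14 arrays r is 0.730 for Mybph and 0.870 for Mustn1, and slopes were not compared between diets. Mustn1 was picked as the gene of highest r with Ankrd1 among 9753 genes on these arrays.

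The other 4 genes belonged to neither set. Xirp1 was most like Psmc2 (r = 0.920, and 0.719 without the 2 farthest arrays), a proteasome ATPase, Ube2o (0.883), a ubiquitin enzyme, and Ppp2r5b (0.881). Flnc was most like Asb6 (0.820), Hddc2 (0.783) and Pgls (0.745), an enzyme of the pentose phosphate pathway. For Pgls r was 0.909 within HMB arrays and 0.38 within control arrays. Nrap was nearest to the metalloprotease Adamts1 (0.842), the quinone reductase Nqo1 (0.826) and Rprd1a (0.824). Ankrd23 was nearest to the endothelial receptor Tek (0.865), Fam53c (0.862) and Ppp1r27 (0.861), with r of 0.642, 0.632 and 0.677 once the 2 farthest arrays were left out. Flnc and Ankrd1 had r = 0.528 (permutation p 0.0544, adjusted 0.313).

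Proteins that work beside these genes showed no call between diets. Of 38 measured genes of titin and Z-disc structure, 23 were higher by mean in HMB and 15 lower, with a median difference of 0.027. One was under an unadjusted p of 0.05, Nebl, a nebulin relative of the heart, at 4.32 ± 0.25 in HMB and 4.67 ± 0.29 in control (SD, n = 7 each), which is below the intron median. Csrp1, a LIM protein of smooth muscle related to Csrp3, averaged 11.28 ± 0.53 and 11.68 ± 0.22, and the titin cap gene Tcap 15.72 ± 0.25 and 15.43 ± 0.35, with limma adjusted p = 0.990 for each of the 3 genes. Smooth muscle markers, with which Csrp1 is shared, were lower by mean in 7 of 8 cases (list mean 10.83 ± 0.40 in HMB and 11.08 ± 0.18 in control, with Acta2 and Myh11 lower at an unadjusted p under 0.05 and 0 genes after adjustment), and their part in Csrp1 was not tested.

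Of 15 thick filament and M-band genes, 8 were higher and 7 lower by mean, and 0 of them were under an unadjusted p of 0.05. Mybpc3, the heart form, averaged 3.09 ± 0.47 in HMB and 2.88 ± 0.24 in control, which is background. Myom2, a crosslinker of the M-band, averaged 16.23 ± 0.22 and 16.09 ± 0.24, and Trim55, a ubiquitin ligase that binds titin, 11.21 ± 0.43 and 11.38 ± 0.72.

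Among 11 genes of filamin turnover and small heat shock proteins, which clear and refold stretched filamin, 8 were higher and 3 lower by mean, with a median difference of 0.059 and 0 under an unadjusted p of 0.05. Flna, the filamin of non-muscle cells, averaged 12.74 ± 0.27 in HMB and 13.08 ± 0.46 in control. Hspb2 averaged 11.84 ± 0.12 and 11.56 ± 0.50, and Hspb8, which works with Bag3 on damaged filamin, 15.44 ± 0.22 and 15.28 ± 0.34.

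Of 33 genes of the load and damage response, 14 were higher and 19 lower by mean, with a median difference of -0.093 and 0 under an unadjusted p of 0.05. The cell cycle inhibitor Cdkn1a averaged 10.96 ± 0.62 in HMB and 11.42 ± 0.48 in control, and Tnfrsf12a, the receptor of TWEAK, 11.35 ± 0.58 and 11.74 ± 0.42. The cytokine Lif averaged 4.39 ± 0.80 and 3.88 ± 0.55, which is below the intron median. HMB 4 had the highest list mean of the HMB animals (10.27, the others 9.29 to 9.58), beside a fibroblast and matrix mean of 12.52 (others 10.36 to 11.50) and a macrophage mean of 10.79. The part of those cells was not tested.

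Of the fibre type lists, 8 of 10 slow genes and 10 of 11 fast genes were higher by mean in HMB. The share over all genes was 51.7%. Median differences were 0.18 and 0.026, with 0 genes under an unadjusted p of 0.05 in either list. Control 2 was the lowest animal in both list means (6.89 slow and 17.10 fast), and these counts were not taken without it. Casq2, the slow calsequestrin, averaged 9.71 ± 1.20 in HMB and 9.08 ± 1.31 in control, Myl2 12.91 ± 1.98 and 11.74 ± 3.53, and Myl3 10.84 ± 2.35 and 9.80 ± 2.84. Of the fast list, Pvalb averaged 18.89 ± 0.09 and 18.78 ± 0.14, Myh2 16.93 ± 0.67 and 16.23 ± 1.84, and Tnnc2 17.55 ± 0.18 and 17.45 ± 0.18.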

How the data were processed

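RNA of gastrocnemius muscle was labelled with the WT PLUS kit and hybridised to Clariom S arrays, 1 per animal. The deposited values, summarised per probeset by the authors, were read as log2. That scale was inferred, and background correction, normalisation and software are not given in the sources used here. Of 28846 probesets, 22206 measured genes, and 19572 with exactly 1 symbol in GEO's platform annotation were averaged to 19505 genes, with no filter. Precision depends on how many animals there were, and the labels do not name litters or batches. Groups came from the titles.

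HMB was compared with control by limma 3.58.1 in R 4.3.3 (lmFit, eBayes, two-sided, Benjamini-Hochberg over all genes, threshold 0.05), checked on simulated data. Single genes also had an exact permutation test. Correlations used numpy 2.4.6, with 100000 permutations over 14 arrays and all 5040 pairings within groups.

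The genes, lists and tests were chosen with earlier results of these data known. Named genes were the 9 genes, the 3 of smallest unadjusted p in each pathway list, and the 3 of highest r with each gene among those at or above the median level. A few others (Myh1, Myh4, Myh7, Acta2, Myh11, Ncmap, Pmp22 and Mbp) were added after their values were seen. Pathway lists covered titin and Z-disc structure (38 of 39 entries measured), thick filament and M-band (15 of 16), filamin turnover (11 of 15), load and damage (33 of 35), slow fibres (10 of 10) and fast fibres (11 of 11). Marker lists covered skeletal muscle, heart muscle, B and T lymphocytes, keratinocytes, fibroblasts and matrix, tendon, smooth muscle, macrophages, Schwann cells and nerve, endothelium and adipocytes.

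Alternatives were renewed quantile normalisation, median centring, 2 filters on dim genes, the brightest probeset, all gene probesets, a trended robust prior, array weights, a replicate block, the methods' t-test, a slow fibre covariate and leaving out arrays.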

Additional observations from a re-analysis of the deposited data

Results flagged for a closer look

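In groups of 7, a lowest or highest animal was set apart when its gap to the nearest other exceeded the critical share of the group's range in Dixon's test, which chance alone does in about 1 of 20 groups. This held in 10 of 52 groups examined, 4 of them among the 18 groups of the 9 genes. All 4 were control 2, which was lowest for Ankrd2 (gap 0.582 of the range), Csrp3 (0.591) and Myoz2 (0.635) and highest for Flnc (0.571). Control 2 was also lowest in the fast fibre mean (0.778) and the endothelial mean (0.670). The groups share arrays, and Ankrd2, Csrp3 and Myoz2 varied together, so these flags are not independent. Their count therefore cannot be set against the share of 1 in 20.

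The other cases were HMB 4, highest in the load and damage mean (0.701), control 7, highest in the lymphocyte mean (0.986) and the adipocyte mean (0.609), and control 3, highest in the fibroblast and matrix mean (0.626).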

How the results depend on the processing

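No alternative called any of the 9 genes, with limma adjusted p of 0.898 to 1 over 243 combinations of gene and alternative, and 0 genes were called overall in each of 27 alternatives (smallest adjusted p of any gene 0.122, once genes under the median level were left out, then 0.183 without HMB 5 and 0.278 with the slow fibre covariate, against 0.313 in the fit of the report). Counts at an unadjusted p under 0.05 were 885 over all arrays, 403 once genes under the median level were left out, 191 among genes over the intron percentile and 853 by the methods' t-test. The direction changed in 19 of the 243 combinations, for genes whose differences were near 0 or rested on control 2. Ankrd23 was at -0.015 with renewed quantile normalisation, and Xirp1 at 0.057 with median centring and 0.056 with the slow fibre covariate. Leaving out 1 array gave -0.11 to 0.29 for Ankrd1, 0.25 to 1.88 for Ankrd2, -0.025 to 0.039 for Ankrd23, -0.41 to 1.29 for Csrp3, -0.29 to 0.27 for Xirp1, 0.40 to 0.75 for Flnc, 0.35 to 1.49 for Mybph, 0.30 to 1.57 for Myoz2 and 0.08 to 0.17 for Nrap. The median of the 9 genes was 0.27 without control 2 and at most 0.75. Median centring moved the median difference of all genes to 0.080 and the genes at an unadjusted p under 0.05 to 631 higher and 242 lower, against 458 and 427 without it. Pairs of genes past the adjusted threshold numbered 4 over 14 arrays and 2 within the 7 HMB arrays, where fewer animals enter.

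The replicate block left 0 genes called and 958 at an unadjusted p under 0.05, with the same differences. Nothing in the labels pairs the animals. Deviations of same-numbered arrays correlated at -0.075 to 0.121, over 0.1 for 2 of 7 numbers, and 1 of 7 HMB arrays correlated best with its own number.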

Other observations

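Of the marker lists not described above, the tendon and myotendinous junction mean, which bears on Nrap and Xirp1 because both are found at fibre ends, was 8.71 ± 0.83 in HMB and 8.70 ± 0.73 in control (SD, n = 7 each). The macrophage mean was 9.60 ± 0.79 and 9.66 ± 0.53. The keratinocyte mean was 4.74 ± 0.27 and 4.41 ± 0.11, below the intron median, with 2 of 10 genes higher at an unadjusted p under 0.05. The Schwann cell and nerve mean was 8.15 ± 0.62 and 8.93 ± 0.22, with 5 of 5 measured genes lower by mean, 4 of them at an unadjusted p under 0.05 and 0 after limma's adjustment. Ncmap, Pmp22 and Mbp, genes of myelinating Schwann cells, had unadjusted limma p of 0.00667, 0.00705 and 0.0124 (adjusted p = 0.990 for each).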
